A study of Mus musculus with 16 samples.

Results

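The mitochondrial ribosomal proteins were described in mouse liver across a hepatocyte knockout of HIRA and liver regeneration. Members were the genes whose symbol begins with Mrpl or Mrps followed by a digit, without the pseudogenes so named, and with at least 10 read counts in total over 16 libraries. This gave 78 of the 55421 genes in the count table, and all 78 were among the 23018 genes that reached the count minimum and were tested. The rule used names and not the measured response, but the set was chosen with earlier results of these data known.

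Mitochondria carry their own ribosome, which makes the few proteins that the mitochondrial genome encodes, all of them parts of the respiratory chain or the ATP synthase. Its ribosomal RNAs come from the mitochondrial genome, while every one of its proteins is encoded in the nucleus, made in the cytosol and imported. Some of these proteins have counterparts in bacterial ribosomes and others are specific to mitochondria. Hepatocytes are rich in mitochondria, and a liver that regrows after resection has to make new ribosomes of both kinds.

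The 16 libraries were poly-A RNA-seq of bulk liver from male C57BL/6 mice, in 4 groups of 4, with control and HIRA KO mice each sampled before and after regeneration. HIRA is the chaperone that deposits the histone variant H3.3 into chromatin at any stage of the cell cycle. Every mouse received AAV8 at 6 months of age, and each group held 2 Tbg-Cre libraries (HIRA fl/fl for the KO, WT for the control) and 2 CRISPR libraries (sgHIRA for the KO, sgRosa26 for the control), with Cre or Cas9 driven by the hepatocyte promoter Tbg. The tissue resected 4 weeks later by partial hepatectomy was the sample before regeneration, and the lobes left in place, taken 5 days after that, were the sample after regeneration. Lobe, mode of collection and time therefore changed together and cannot be told apart. In bulk tissue, fewer cells of a type and less RNA per cell cannot be told apart either. The column names of the tables gave the group and a running number only, so neither the deletion approach nor the mouse of a library was known here.

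Hira, the targeted gene, lay at 5.21 to 6.18 CPM (counts scaled to the size of the library) in the 4 control libraries before regeneration and at 3.13 to 4.38 CPM in the 4 HIRA KO libraries. After regeneration it lay at 4.99 to 6.29 CPM in control and at 3.04 to 4.56 CPM in HIRA KO. The genotypes did not overlap at either time, in whole liver where other cells keep the gene. Libraries held 15103059 to 21738619 counts. The HIRA KO libraries of columns 1 and 2 stood apart from the others on the second principal component, at -47.4 and -36.6 before and -40.2 and -36.2 after regeneration, where the other libraries lay between -1.14 and 31.2. The summed level of 6 hepatocyte markers (Alb, Apoa1 and others) was 97974 CPM or higher in every library, and each marker of each list was detected. Before regeneration it was 155456 and 138533 CPM in the HIRA KO libraries of columns 1 and 2 and 97974 to 126989 CPM in the other 6 libraries. The summed level of 6 stellate cell and matrix markers was 531 and 403 CPM in those HIRA KO libraries before regeneration and 188 to 223 CPM in the other 6 libraries of that time. Cholangiocyte markers summed to 143 and 97.0 CPM there against 47.7 to 73.7 CPM in the other 6, and B cell markers to 8.78 and 4.73 CPM against 1.45 to 3.43 CPM, and T and NK cell markers to 4.13 and 2.87 CPM against 0.939 to 2.10 CPM. The summed level of 6 Kupffer cell markers was 145 to 380 CPM in control and 186 to 226 CPM in HIRA KO before regeneration, and 611 to 787 CPM and 603 to 943 CPM after it. The summed level of 5 proliferation markers was 3.61 to 9.16 CPM in control and 5.17 to 18.7 CPM in HIRA KO before regeneration, and 33.4 to 248 CPM and 37.3 to 234 CPM after it. Before regeneration, the HIRA KO libraries of columns 1 and 2 held 18.7 and 12.9 CPM of them, and the other 6 libraries 3.61 to 9.16 CPM. The part of these cells and libraries in the results below was not tested, except where values without the HIRA KO libraries of columns 1 and 2 are given.

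The 78 genes lay on 17 chromosomes, and their median span of 7899.5 bases was below the 23096 bases of the 15215 tested protein-coding genes (GENCODE M21, GRCm38). Another protein-coding gene started on the opposite strand within 1000 bases of the start of 33 members, or 42.3%, against 14.3% of the tested protein-coding genes. Mrpl40 is the divergent neighbour of Hira itself: it lies at chr16:18872018-18876862 on the minus strand, and its start is 175 bases from that of Hira on the plus strand. Mrps11 and Mrpl46 are each other's partner, with transcripts that overlap at their starts. Exons of 28 members overlap a gene on the opposite strand and those of 8 members a gene on the same strand. The library kit keeps the strand, but the strand setting of the counting is not given in the sources used here, so reads shared between overlapping genes cannot be assigned with certainty.

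Promoters were taken from RefSeq (GRCm38.p6, 250 bases before to 50 after the start) and were found for 69 of the 78 members. The letters searched, on both strands, were those of factors known to drive nuclear genes for mitochondria. The ETS core bound by GABP (CCGGAAG) stood in 36.2% of the 69 members' promoters, in 9.1% of all 27025 promoters and in 19.7% of the 7688 promoters of genes at 5 CPM or more. The YY1 letters AAGATGGC were present in 17.4% of the members' promoters, against 2.9% of all and 5.2% of those at 5 CPM or more. The NRF1 core GCATGCGC was found in 11.6%, against 2.8% and 5.9%. An ETS core that runs into YY1 letters is counted for each. At least 1 of these 3 was present in 53.6% of the members' promoters, in 13.8% of all and in 28.1% of those at 5 CPM or more. The TATA box letters TATAAA were seen in 5.8% of the members' promoters against 14.2% of all and 7.2% at 5 CPM or more, and CCAAT in 39.1% against 37.9% and 38.7%. The GC box GGGCGG was found in 49.3% against 35.9% and 65.6%, and the E-box CACGTG in 7.2% against 7.2% and 10.7%. These matches are letters and not measured binding.

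The promoters of 4 members whose mRNA differed between the times are shown because they cover the fall of Mrpl34, the rises of Mrps18c and Mrpl57 and the locus beside Hira. They lie at chr8:71464676-71464975 (plus strand) for Mrpl34, chr5:100798509-100798808 (plus strand) for Mrps18c, chr14:57825989-57826288 (plus strand) for Mrpl57 and chr16:18876588-18876887 (minus strand) for Mrpl40, each written 5′ to 3′ along the gene. Capitals mark the ETS core, which reads as CCGGAAG or, on the other strand, as CTTCCGG. None of the ETS, YY1 and NRF1 letters is in the window of Mrpl40, so it has no capitals. Most of this window lies within the GENCODE span of Mrpl40 (chr16:18872018-18876862), and it ends short of the start of Hira. Most of the stretch between the starts of Mrpl40 and Hira was therefore not searched. Mrpl14 and Mrps31, whose mRNA also differed between the times, have none of the ETS, YY1 and NRF1 letters in their windows and are not shown. For Mrpl54 and Mrpl13, which differed too, no promoter was found. The choice shown therefore says nothing on how often the ETS core goes with such a difference.
Mrpl34: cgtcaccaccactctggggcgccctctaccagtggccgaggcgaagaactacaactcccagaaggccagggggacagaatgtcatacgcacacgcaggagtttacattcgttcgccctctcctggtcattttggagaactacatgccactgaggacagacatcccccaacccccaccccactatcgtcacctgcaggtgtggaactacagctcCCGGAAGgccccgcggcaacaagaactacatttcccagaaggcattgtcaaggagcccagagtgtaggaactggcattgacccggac
Mrps18c: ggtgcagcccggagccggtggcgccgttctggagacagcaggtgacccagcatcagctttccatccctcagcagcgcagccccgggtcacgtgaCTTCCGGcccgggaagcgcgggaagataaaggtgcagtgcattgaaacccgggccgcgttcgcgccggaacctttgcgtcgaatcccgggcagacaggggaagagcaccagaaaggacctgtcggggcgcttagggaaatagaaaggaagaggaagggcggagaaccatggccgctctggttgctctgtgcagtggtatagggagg
Mrpl57: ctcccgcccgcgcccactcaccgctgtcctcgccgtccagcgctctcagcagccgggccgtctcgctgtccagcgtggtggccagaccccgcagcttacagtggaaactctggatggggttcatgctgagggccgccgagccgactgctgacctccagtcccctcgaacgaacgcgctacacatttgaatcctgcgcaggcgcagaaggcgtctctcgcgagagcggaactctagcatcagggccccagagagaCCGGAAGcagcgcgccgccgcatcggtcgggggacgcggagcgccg
Mrpl40: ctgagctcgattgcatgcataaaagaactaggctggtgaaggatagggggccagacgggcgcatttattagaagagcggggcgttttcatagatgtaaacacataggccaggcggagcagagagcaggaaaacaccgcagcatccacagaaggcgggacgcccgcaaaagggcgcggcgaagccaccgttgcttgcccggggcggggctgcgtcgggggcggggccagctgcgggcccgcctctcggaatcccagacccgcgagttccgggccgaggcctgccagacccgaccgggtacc

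Levels differed widely between the members. In the deposited FPKM, a level per transcript length and library size, the highest mean over the 4 groups was 87.2 for Mrpl52, followed by Mrps21 (68.2), Mrpl14 (59.2), Mrpl30 (58.6) and Mrpl17 (57.1). The lowest means were 7.79 for Mrpl1, 6.95 for Mrps25, 5.58 for Mrpl47, 5.36 for Mrpl19 and 5.04 for Mrps30. Mrpl52 lay at 86.1 ± 7.12 FPKM (SD, n = 4) in control before and 72.2 ± 5.65 in HIRA KO before, and at 95.4 ± 16.1 and 95.1 ± 13.0 after regeneration. Its neighbour in the order, Mrps21, lay at 62.9 ± 4.73, 69.5 ± 3.85, 63.5 ± 8.79 and 76.9 ± 9.93 FPKM in the same groups. The libraries of these genes did not overlap in control at either time and overlapped in HIRA KO at both. At the other end, Mrps30 lay at 4.84 ± 0.317, 4.81 ± 0.304, 5.19 ± 0.861 and 5.32 ± 0.465 FPKM and Mrpl19 at 4.73 ± 0.663, 3.69 ± 0.795, 6.54 ± 2.28 and 6.48 ± 1.33. They overlapped in each group except HIRA KO before, where Mrpl19 was the lower one with no overlap. Counts of a member summed over the libraries ran from 158 for Mrpl53 to 21482 for Mrpl12, with a median of 6920. The tables disagreed on Mrpl53, whose exons overlap the gene Gm42688 on its own strand, and whose level was 0.068 to 0.927 CPM, the lowest of the set, while its mean FPKM of 36.8 was rank 16 among the members. Its differences therefore carry wide errors (log2 fold change 0.80 with SE 0.479 after against before regeneration in HIRA KO, adjusted p = 0.305 by edgeR), although that fold change was the largest of any member in that comparison.

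**Figure D1:**
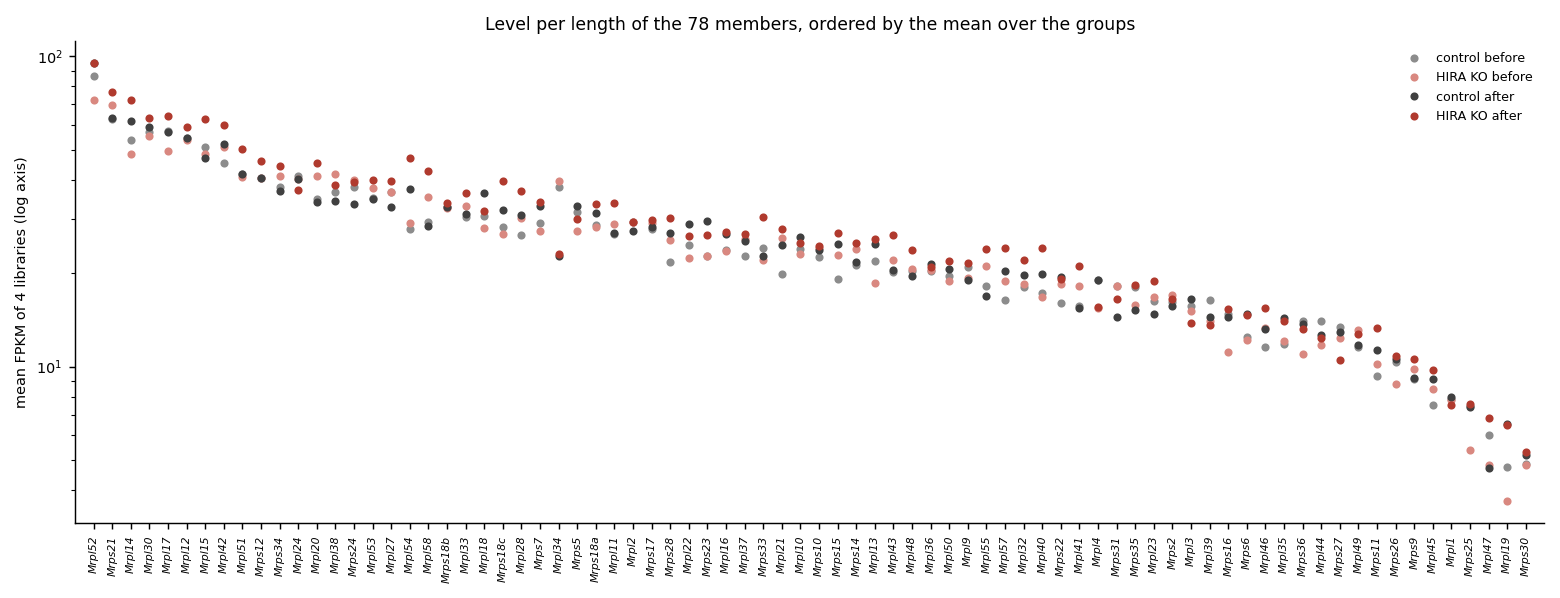
Mean FPKM of each of the 78 members (log axis) in the 4 groups, each dot the mean of 4 libraries, ordered by the mean over the groups. Levels run from 87.2 for Mrpl52 to 5.04 for Mrps30, and the group means of a gene mostly lie close together.

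Before regeneration, the members' summed share of the library totals was 0.201% ± 0.00883 (SD, n = 4) for control livers and 0.191% ± 0.00690 for HIRA KO livers. After it they took 0.199% ± 0.0220 in control and 0.223% ± 0.0137 in HIRA KO. On the CPM scale with TMM factors, their sum was 2089 ± 147, 1962 ± 96.3, 1974 ± 107 and 2109 ± 174 in the same order. The group ranges of the mean log2 level overlapped, at 4.50 to 4.72 in control before, 4.43 to 4.56 in HIRA KO before, 4.46 to 4.63 in control after and 4.45 to 4.69 in HIRA KO after. Within HIRA KO after, the library of column 1 was at 4.45 and the other 3 were between 4.66 and 4.69.

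Before regeneration, the question was whether loss of HIRA had changed the ribosome of mitochondria within the weeks after the virus. No member was called between HIRA KO and control by edgeR, where 0.0391% of all genes were called, by DESeq2, where 1.63% were, or by limma on the FPKM, where 0.0304% were. Of the 78 members 57 had a lower and 21 a higher mean in HIRA KO, with a median log2 fold change of -0.10, against 0.01 for all genes tested. At an unadjusted p under 0.05, 9 members were lower, against 5.95% of all genes, and 0 were higher, against 7.22%. Of the 9722 genes at a mean of 5 CPM or more, 828 were lower and 580 higher at that p, with a median log2 fold change of -0.03. The libraries of the genotypes did not overlap for 8 members, all lower in HIRA KO, against 8.07% of all genes in either direction. Without the HIRA KO libraries of columns 1 and 2 the members' median was -0.0425, with 33 positive, close to the -0.0335 of all genes tested. In the FPKM it was -0.0042, with 37 positive, against 0.0148 for all genes.

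Mrps25, a small subunit protein with no bacterial counterpart, was at 9.30, 10.5, 11.5 and 12.0 CPM in control before and at 6.77, 6.34, 8.36 and 8.58 in HIRA KO before. These libraries did not overlap, and the log2 fold change was -0.53 with SE 0.161 (edgeR adjusted p = 0.201). Exons of Mrps25 overlap those of Nr2c2 on the other strand. Mrpl44, a large subunit protein related to ribonuclease III, was at 21.7, 23.5, 22.0 and 25.5 CPM in control and at 17.4, 16.9, 19.5 and 19.9 in HIRA KO, again without overlap. Its log2 fold change was -0.33 (SE 0.102, adjusted p = 0.201 by edgeR). For Mrps26, of the small subunit, control lay at 11.6 to 15.5 CPM and HIRA KO at 8.54 and 8.73 in columns 2 and 1 and at 12.2 and 12.8 in the other columns, with a log2 fold change of -0.42 (SE 0.156, adjusted p = 0.285 by edgeR). The smallest p among members with a higher mean in HIRA KO belonged to Mrpl21 (log2 fold change 0.17), Mrpl58 (0.15) and Mrps15 (0.13), with adjusted p of 0.598, 0.605 and 0.639. Mrpl58 is the peptidyl-tRNA hydrolase that became part of the large subunit and frees stalled chains.

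By role, the median log2 fold change before regeneration was -0.06 over the 16 small subunit proteins shared with bacteria, -0.09 over the 10 small subunit proteins specific to mitochondria, -0.12 over the 30 large subunit proteins shared with bacteria and -0.02 over the 21 large subunit proteins specific to mitochondria. The 86 cytoplasmic ribosomal proteins had a median of -0.21, with 11 positive, and the 85 nuclear subunits of oxidative phosphorylation a median of -0.13, with 16 positive. None of either set was called by edgeR, and DESeq2 called 11 cytoplasmic ribosomal proteins lower and 1 higher and 3 oxidative phosphorylation subunits lower. Mrps36 carries the ribosomal name but belongs to the 2-oxoglutarate dehydrogenase complex. It was at 6.86 to 8.23 CPM in control and 4.40 to 6.25 in HIRA KO before regeneration, without overlap (log2 fold change -0.44, SE 0.166, adjusted p = 0.286 by edgeR).

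After regeneration, HIRA KO was compared with control in the regrown liver. No member was called by edgeR, where 0.491% of all genes were, while DESeq2 called 7 members higher and 0 lower in HIRA KO, where it called 3.95% of all genes in either direction. In the FPKM limma called 1 member, Mrpl41, higher, where it called 0.295% of all genes. The 7 of DESeq2 were Mrpl41, Mrpl43, Mrpl15, Mrpl55, Mrpl20, Mrpl58 and Mrpl47, all of the large subunit. Of the members 59 had a higher and 19 a lower mean in HIRA KO, with a median log2 fold change of 0.10 against 0.02 for all genes. At an unadjusted p under 0.05, 12 members were higher, against 7.75% of all genes, and 2 were lower, against 8.02%. Of the 9722 genes at a mean of 5 CPM or more, 776 were higher and 1478 lower at that p, with a median log2 fold change of -0.06. Libraries of the genotypes did not overlap for 10 members, 9 of them higher in HIRA KO, against 8.10% of all genes in either direction. The number called depended on the genes tested. With the stricter filter of edgeR on low counts, 6 members were called, where 228 of 15201 genes were. The number also depended on the library, with 4 called without column 3 or without column 4 of HIRA KO after. In these fits 347 of 22678 and 452 of 22778 genes were called.

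Mrpl43, of the large subunit and specific to mitochondria, was at 17.5, 16.5, 17.2 and 19.2 CPM in control after and at 24.0, 28.4, 22.1 and 21.0 in HIRA KO after. All 4 HIRA KO libraries were above the highest control library (log2 fold change 0.44, SE 0.104, adjusted p = 0.0623 by edgeR and 0.0032 by DESeq2). Its exons overlap those of Twnk, the mitochondrial DNA helicase, on the other strand. Mrpl55 was at 13.8, 12.9, 14.7 and 14.6 CPM in control and at 19.6, 23.1, 17.4 and 17.9 in HIRA KO, also without overlap (log2 fold change 0.48, SE 0.117, adjusted p = 0.0669 by edgeR and 0.00466 by DESeq2). Mrpl41 was at 10.8, 12.5, 11.6 and 10.7 CPM in control and at 14.0, 17.1, 14.3 and 15.5 in HIRA KO (log2 fold change 0.42, SE 0.104, adjusted p = 0.0704 by edgeR and 0.00305 by DESeq2). In each of these 3 genes the library of column 2 was the highest of HIRA KO after.

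On the lower side, Mrps27, an RNA-binding protein of the small subunit, was at 20.9 to 26.3 CPM in control after and at 14.2 to 21.9 in HIRA KO after, with overlap (log2 fold change -0.32, SE 0.143, adjusted p = 0.282 by edgeR). Mrpl4 was at 25.8 to 34.1 CPM in control and 20.1 to 25.2 in HIRA KO, without overlap (log2 fold change -0.35, adjusted p = 0.287 by edgeR), and Mrpl3 had a log2 fold change of -0.22 (adjusted p = 0.371 by edgeR). By role, the median was 0.15 over the 21 large subunit proteins specific to mitochondria, 19 of them positive, 0.10 over each of the sets shared with bacteria, and 0.01 over the 10 small subunit proteins specific to mitochondria. The nuclear subunits of oxidative phosphorylation had a median of 0.25, with 75 of 85 positive, and the cytoplasmic ribosomal proteins a median of 0.13, with 76 of 86 positive, none called in either set by edgeR. DESeq2 called 21 of the 85 oxidative phosphorylation subunits and 1 of the 86 cytoplasmic ribosomal proteins higher and none lower.

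**Figure D2:**
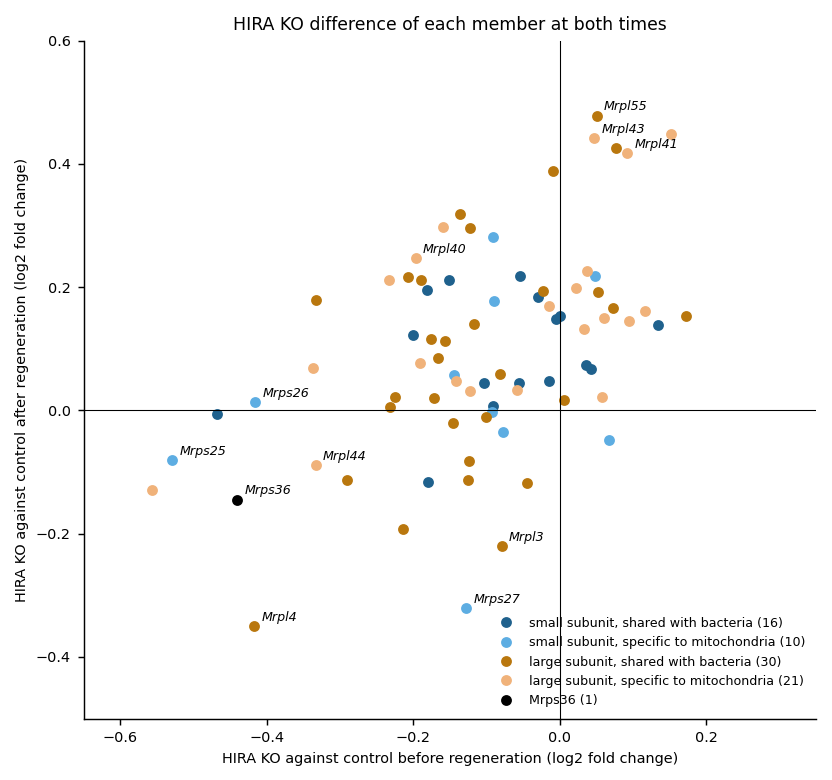
Log2 fold change of HIRA KO against control for each of the 78 members, before (horizontal axis) and after regeneration (vertical axis), coloured by subunit and by presence of a bacterial counterpart. The upper left, lower in HIRA KO before and higher after, holds 39 members and the lower right holds 1.

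The sign of the HIRA KO difference was negative before and positive after regeneration for 39 of the 78 members, negative at both times for 18, positive at both for 20 and positive then negative for 1. Among the 9722 genes at a mean of 5 CPM or more, the counts were 1565, 3939, 2360 and 1858 in the same order. The change of the HIRA KO difference with regeneration was tested directly as an interaction. It was called for no member by edgeR, where 0% of all genes were called, for none by DESeq2, where 0.291% were, and for none by limma on the FPKM, where 0% were. Its log2 value was positive for 72 of 78 members with a median of 0.19, against -0.02 for all genes. At an unadjusted p under 0.05, 13 members were positive, against 3.97% of all genes, and 0 were negative, against 2.85%. The medians were 0.33 for the cytoplasmic ribosomal proteins and 0.39 for the nuclear subunits of oxidative phosphorylation, so positive values were shared by these other sets. In the FPKM the members' median was 0.11 with 57 positive. In the edgeR fits of the counts, the members' median ran from 0.17 to 0.30 when 1 library was left out.

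The smallest p for this change belonged to Mrpl17, Mrpl27 and Mrpl47 of the large subunit. Mrpl17 was at 35.6 to 39.3 CPM in control before and 31.3 to 35.4 in HIRA KO before, without overlap, and at 31.1 to 35.9 in control after and 33.6 to 41.6 in HIRA KO after, with overlap. Its interaction was 0.40 on the log2 scale (SE 0.127, adjusted p = 0.482 by edgeR). Mrpl27 gave 0.42 (adjusted p = 0.503 by edgeR) and Mrpl47 0.46 (adjusted p = 0.533 by edgeR). The negative values with the smallest p were -0.19 for Mrps27, -0.14 for Mrpl3 and -0.07 for Mrpl24, with adjusted p of 0.887, 0.903 and 0.948.

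Regeneration itself was followed in each genotype, which asks how the mitochondrial ribosome is provided for in regrowing liver. In control, 2 members were called, both lower after regeneration, of the 10.2% of all genes called in either direction (6.04% higher and 4.17% lower). DESeq2 called 3 members, all lower, where it called 14.3% of all genes. The median log2 fold change was -0.09 with 26 of 78 positive, against 0.00 for all genes, and the libraries of the times did not overlap for 8 members, against 19.0% of all genes. With library totals alone as the scaling, 36 members were positive, with a median of -0.0146 against 0.0640 for all genes. The FPKM gave 44 positive members, with a median of 0.0218 against 0.0262 for all genes. The members' median in control was thus negative under every scaling of the counts and positive in the FPKM, and below that of all genes in each. In the FPKM limma called 2 members higher and 1 lower, where it called 8.28% of all genes. The higher ones were Mrpl57 (log2 fold change 0.29, adjusted p = 0.0363 by limma) and Mrps23 (0.36, adjusted p = 0.0419 by limma), for which the counts gave 0.00 and 0.05 (adjusted p of 1 and 0.812 by edgeR), and the lower one was Mrpl34. The nuclear subunits of oxidative phosphorylation had a median of -0.33, with 23 of 85 called lower and 1 higher.

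Mrpl34, of the large subunit with a bacterial counterpart, fell furthest. It was at 18.1, 20.9, 25.1 and 26.6 CPM in control before and at 13.5, 11.1, 11.0 and 13.3 in control after, so every later library was below every earlier one. The log2 fold change was -0.89 with SE 0.136, a level after regeneration of 0.539 times that before (adjusted p = 0.000799 by edgeR). In HIRA KO it was at 17.6, 17.3, 23.0 and 22.6 CPM before and at 11.8, 11.8, 13.1 and 13.0 after, again without overlap, with a log2 fold change of -0.70 (SE 0.136, adjusted p = 0.00339 by edgeR). Mrpl34 was called lower in both genotypes under every alternative run, and its interaction was 0.19 (SE 0.192, adjusted p = 0.878 by edgeR). It is a short gene of 2 exon blocks at chr8:71464959-71465747, and its exons overlap no other gene.

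Mrps31, of the small subunit and specific to mitochondria, was at 33.2, 37.2, 33.7 and 35.1 CPM in control before and at 24.0, 28.3, 24.8 and 23.7 in control after. The times did not overlap (log2 fold change -0.47, SE 0.117, adjusted p = 0.0160 by edgeR), but the call was lost with library totals alone (adjusted p = 0.0541 by edgeR) and in the FPKM (adjusted p = 0.162 by limma). In HIRA KO the times overlapped, at 28.7 to 38.2 CPM before and 23.4 to 34.1 after, with a log2 fold change of -0.20 (adjusted p = 0.294 by edgeR). The next in control was Mrpl27, whose counterpart in bacteria lies at the site of peptide bond formation. It was at 23.8 to 26.6 CPM before and 20.4 to 22.2 after, a log2 fold change of -0.27 (adjusted p = 0.0902 by edgeR and 0.0424 by DESeq2), and its exons overlap those of Eme1 on the other strand. The smallest p on the higher side belonged to Mrpl54 (log2 fold change 0.30, adjusted p = 0.121 by edgeR), Mrps15 (0.23, adjusted p = 0.204) and Mrps11 (0.19, adjusted p = 0.485).

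In HIRA KO, 6 members were called higher and 1 lower after regeneration, where 12.0% of all genes were called (6.48% higher and 5.53% lower). DESeq2 called 10 higher and 2 lower, where it called 15.9% of all genes, and limma on the FPKM 10 higher and 1 lower, where it called 11.5%. The 6 of edgeR were Mrpl54, Mrpl14, Mrpl40, Mrps18c, Mrpl57 and Mrpl13, and the lower one was Mrpl34. Of the 78 members 62 were positive with a median log2 fold change of 0.14, against 0.02 for all genes. Libraries of the times did not overlap for 9 members, against 16.1% of all genes. The cytoplasmic ribosomal proteins had a median of 0.32 with 24 of 86 called higher and 0 lower, and the nuclear subunits of oxidative phosphorylation a median of 0.02 with 6 of 85 called higher and 1 lower. With library totals alone the median of all genes moved to 0.14 and that of the members to 0.26. Without the HIRA KO libraries of columns 1 and 2, 7 members were called higher and 1 lower, where 2225 of 21500 genes were called. With only the libraries of HIRA KO in the fit, 2 were called higher and 1 lower, where 1431 of 20922 genes were called. With 1 library left out, the number called in either direction ran from 4 to 10. The 4 were without column 4 of HIRA KO after, where 2728 of 22778 genes were called. The 10 were without column 1 of HIRA KO after, where 2361 of 22564 genes were called.

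**Figure D3:**
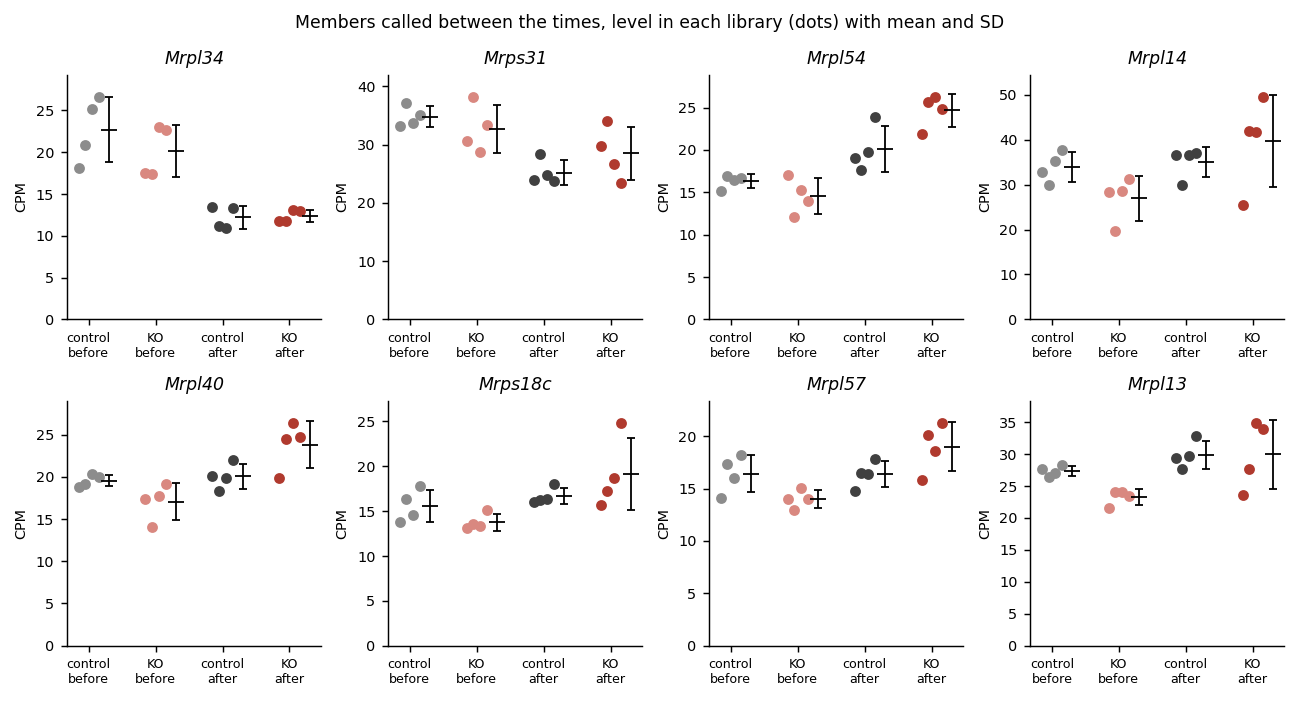
CPM of the 8 members called between the times in either genotype, 1 dot per library, with the mean and SD of 4 libraries beside each group. Mrpl34 is lower after regeneration in both genotypes, with no later library above 13.5 CPM, and Mrpl54 is highest in HIRA KO after, at 21.9 to 26.3 CPM.

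Mrpl54, of the large subunit and specific to mitochondria, rose furthest among the called members. It was at 17.1, 12.1, 15.2 and 14.0 CPM in HIRA KO before and at 21.9, 25.7, 26.3 and 24.8 in HIRA KO after, without overlap. The log2 fold change was 0.76 with SE 0.118, or 1.69-fold (adjusted p = 0.000734 by edgeR), and it was called under every alternative run. In control it was at 15.1, 16.9, 16.5 and 16.7 CPM before and at 19.0, 17.6, 19.7 and 23.9 after, also without overlap. Its interaction was 0.46 (SE 0.166, adjusted p = 0.577 by edgeR), so a difference between the genotypes in this change was not called.

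Mrpl40, the divergent neighbour of the deleted gene Hira, was at 17.4, 14.0, 17.7 and 19.1 CPM in HIRA KO before. In HIRA KO after it was at 19.8, 24.4, 26.4 and 24.7 CPM. No library of the later time was below one of the earlier time (log2 fold change 0.48, SE 0.110, adjusted p = 0.00937 by edgeR), and the call was lost with only the HIRA KO libraries in the fit (adjusted p = 0.0538 by edgeR). In control it was at 18.8 to 20.3 CPM before and 18.3 to 22.0 after. Between the genotypes Mrpl40 differed by -0.20 before (SE 0.110, adjusted p = 0.462 by edgeR) and by 0.25 after regeneration (SE 0.109, adjusted p = 0.278 by edgeR), while Hira differed by -0.70 and -0.69 (adjusted p of 0.129 and 0.0666 by edgeR). The genotypes overlapped at both times for Mrpl40, and no difference between them was called.

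Mrpl57 was at 14.0, 12.9, 15.0 and 14.0 CPM in HIRA KO before and at 15.9, 20.2, 18.6 and 21.3 after, without overlap (log2 fold change 0.44, SE 0.112, adjusted p = 0.0169 by edgeR, and 0.0528 without the HIRA KO libraries of columns 1 and 2). Mrps18c is the member of the Mrps18 trio that occupies the place of the bacterial protein in the small subunit. It was at 13.1, 13.5, 13.3 and 15.2 CPM before and at 15.6, 17.3, 18.7 and 24.8 after, without overlap. Its log2 fold change was 0.47 (SE 0.130, adjusted p = 0.0249 by edgeR), and 0.34 (adjusted p = 0.0586) without the library of column 4 after regeneration, while without column 3 before regeneration the adjusted p was 0.0552. The relatives of Mrps18c differed by 0.24 (Mrps18a, of the large subunit, adjusted p = 0.168 by edgeR) and by -0.05 (Mrps18b, of the small subunit, adjusted p = 0.876 by edgeR).

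Mrpl14, which lies at the face of the large subunit that meets the small one, was at 28.3, 19.7, 28.6 and 31.3 CPM before and at 25.4, 42.0, 41.8 and 49.6 after in HIRA KO. The times overlapped through the library of column 1 after regeneration (log2 fold change 0.56, SE 0.170, adjusted p = 0.0413 by edgeR). Mrpl13 was at 21.5, 24.1, 24.1 and 23.5 CPM before and at 23.5, 27.6, 34.9 and 33.9 after (log2 fold change 0.36, SE 0.112, adjusted p = 0.0417 by edgeR). Leaving out a library of HIRA KO ended the call of Mrpl14 for 6 of the 8 libraries, with adjusted p of 0.0529 to 0.105, and that of Mrpl13 for 6 of the 8, with adjusted p of 0.0566 to 0.128. Exons of Mrpl14 overlap those of Tmem63b, and exons of Mrpl13 those of Mtbp, on the other strand. The partners starting closest to risen members were Apba3, 26 bases from Mrpl54, Helq, 29 bases from Mrps18c, and Ska3, 49 bases from Mrpl57. Their log2 fold changes in HIRA KO were -0.27 (adjusted p = 0.260), -0.11 (adjusted p = 0.797) and 2.09 (adjusted p = 0.0676) by edgeR. Mtbp, the partner of Mrpl13, was called higher in HIRA KO (log2 fold change 1.02, adjusted p = 0.0360 by edgeR). Tmem63b, the partner of Mrpl14, was not called (-0.11, adjusted p = 0.661 by edgeR). Whether shared reads had a part in the values of the overlapping genes was not tested.

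**Figure D4:**
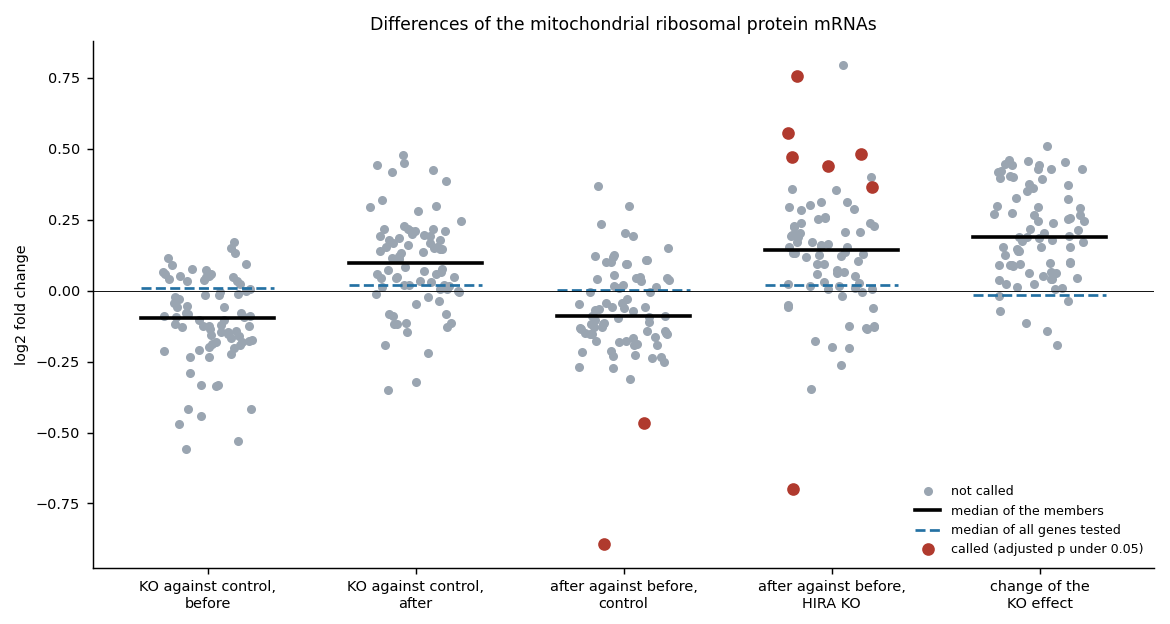
Log2 fold change of each of the 78 members in the 5 comparisons, with called members in red, the members' median as a black line and the median of all genes tested as a dashed blue line. The members' medians are -0.10, 0.10, -0.09, 0.14 and 0.19 from left to right, and edgeR calls no member in the comparisons of the genotypes or in their change.

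Other members were looked at for their known roles. The stalk that recruits translation factors is built on Mrpl12, Mrpl10 and Mrpl11. Mrpl12, which also binds the mitochondrial RNA polymerase, had the most counts of all members and was at 78.0 ± 9.78 CPM (SD, n = 4) in control before, 69.1 ± 11.0 in HIRA KO before, 69.7 ± 9.72 in control after and 75.5 ± 16.3 in HIRA KO after. Its log2 fold changes lay between -0.18 and 0.13 in the 4 comparisons of groups, with no adjusted p under 0.610 by edgeR. Mrpl10 was at 48.1 ± 3.99, 44.1 ± 4.87, 48.7 ± 2.37 and 45.0 ± 3.92 CPM in the same order, and Mrpl11 at 24.6 ± 1.37, 24.2 ± 1.48, 23.5 ± 1.17 and 26.9 ± 3.39. Mrps12, at the decoding site, was at 30.2 ± 3.49, 26.2 ± 4.18, 27.8 ± 1.74 and 30.3 ± 2.65 CPM. No difference between groups was called for these 4 genes by edgeR. Mrps34 was at 19.3 ± 0.739 CPM in control after and 22.5 ± 2.62 in HIRA KO after, without overlap (log2 fold change 0.22, adjusted p = 0.276 by edgeR). Mrpl45, which anchors the ribosome to the inner membrane, lay between 23.9 and 27.2 CPM in the group means, and Mrpl58 was at 20.1 ± 1.92 CPM in control after and 27.4 ± 3.21 in HIRA KO after, without overlap (log2 fold change 0.45, adjusted p = 0.0759 by edgeR and 0.00816 by DESeq2).

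**Figure D5:**
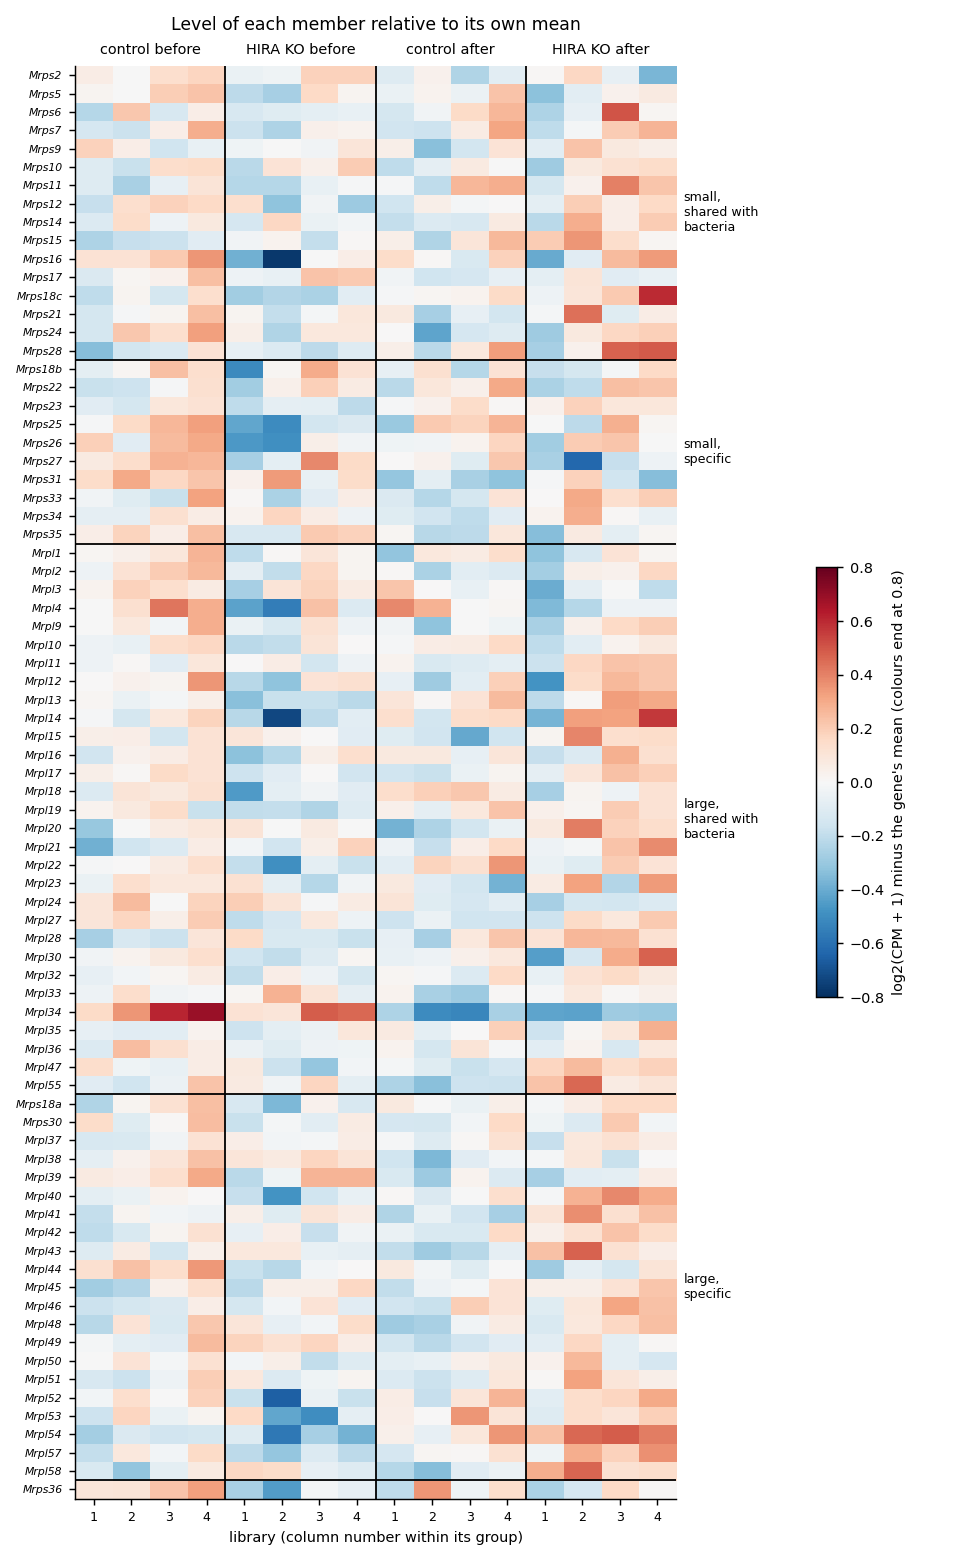
Level of each member in each of the 16 libraries as log2(CPM + 1) minus the gene's own mean, red above and blue below it, with rows ordered by subunit and by presence of a bacterial counterpart and libraries by group and column number. Mrpl34 is red before and blue after regeneration, and many members are below their mean in columns 1 and 2 of HIRA KO before.

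Genes that work with these proteins were counted from fixed lists. The 5 mitoribosome subunits with other names (Dap3, Ptcd3, Chchd1, Aurkaip1 and Gadd45gip1) had medians of -0.24 and 0.17 for HIRA KO against control before and after regeneration and of -0.03 and 0.17 for regeneration in control and in HIRA KO. Gadd45gip1, of the large subunit, was the only one called, higher after regeneration in HIRA KO (log2 fold change 0.41, SE 0.122, adjusted p = 0.0377 by edgeR). Of 25 assembly factors, 1 was called lower with regeneration in control and 3 in HIRA KO, and none higher, where 4.17% and 5.53% of all genes were called lower. These were Mrm1, an rRNA methyltransferase, in control (-0.87, adjusted p = 0.0198), and Mtg1, a GTPase (-0.44, adjusted p = 0.0486), Mterf3 (-0.45, adjusted p = 0.0330) and Rbfa (-0.44, adjusted p = 0.0362) in HIRA KO, all by edgeR.

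Of 13 translation factors, Taco1, the activator of Cox1 translation, was called lower with regeneration in control (-0.41, adjusted p = 0.0480 by edgeR), and Slirp, which stabilises mitochondrial mRNAs, was called higher in HIRA KO (0.70, adjusted p = 0.0121 by edgeR). Of 17 mitochondrial aminoacyl-tRNA synthetases, Hars2 was called lower in HIRA KO (-0.40, adjusted p = 0.00883 by edgeR). Of 8 genes that express mitochondrial DNA, Polg, the DNA polymerase, was called lower with regeneration in control (-0.29, adjusted p = 0.0394) and Tfb2m, a transcription factor of mitochondria, in HIRA KO (-0.55, adjusted p = 0.00527), both by edgeR. Of 9 regulators of nuclear genes for mitochondria, Gabpa, the ETS factor whose core is marked in the promoters above, was called lower with regeneration in HIRA KO (-0.45, SE 0.111, adjusted p = 0.0133 by edgeR). Gabpa was at 44.2, 43.3, 36.4 and 38.5 CPM in HIRA KO before and at 28.6, 30.5, 30.4 and 29.1 after, and its own log2 fold change in control was -0.16 (adjusted p = 0.421 by edgeR). In each of these 4 lists no more than 1 gene was called with regeneration in a genotype, where 10.2% of all genes were called in control and 12.0% in HIRA KO. None of the genes in these lists was called between the genotypes at either time or in the interaction by edgeR.

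The ribosomal RNAs themselves, mt-Rnr1 of the small and mt-Rnr2 of the large subunit, were read in poly-A libraries, which catch only a part of them. mt-Rnr2 was at 1258 ± 142 CPM in control before and 545 ± 117 in control after (log2 fold change -1.21, adjusted p = 0.000905 by edgeR), and at 1236 ± 268 and 723 ± 124 in HIRA KO (-0.77, adjusted p = 0.0130 by edgeR). mt-Rnr1 was called lower in control only (-0.74, adjusted p = 0.00980 by edgeR), and its difference in HIRA KO was -0.14 (adjusted p = 0.638 by edgeR). The interaction was 0.60 for mt-Rnr1 (adjusted p = 0.639) and 0.43 for mt-Rnr2 (adjusted p = 0.782) by edgeR, so a difference between the genotypes in this change was not called. For HIRA KO against control after regeneration, the median of these 2 RNAs was 0.51. Neither was called by edgeR there, while DESeq2 called 1 of the 2 higher, where it called 3.95% of all genes in either direction. The 13 mRNAs of the mitochondrial genome had a median of -0.56 with regeneration in control, with 1 called lower, where 4.17% of all genes were. In HIRA KO it was -0.27, with 5 called higher and 3 lower, where 6.48% and 5.53% of all genes were. For HIRA KO against control their median was -0.26 before regeneration and 0.08 after it, none called by edgeR. DESeq2 called 6 lower before regeneration, where it called 1.63% of all genes, and none after it. In the interaction edgeR called none and DESeq2 5 higher, where it called 0.291% of all genes.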

How the data were processed

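Poly-A RNA-seq had been made from 16 liver libraries. The authors trimmed reads where needed, aligned them to mm10 with STAR and, by the study's methods, counted reads per gene with HOMER, while the submitters' processing notes name STAR, HTSeq and Cufflinks. The deposited read counts were used as they stood. The deposited FPKM came from a tool whose role is not given in the sources used here, and empty cells were read as 0. Gene IDs were matched to GENCODE M21, where 54587 of 55421 were identical.

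Genes with at least 10 counts in total were tested (23018). Counts were scaled with TMM factors (0.915 to 1.10), and 4 group means were fitted to all libraries with the robust quasi-likelihood test of edgeR 4.0.16 (R 4.3.3) with Benjamini-Hochberg adjustment over all genes, called at an adjusted p under 0.05. Alternatives were DESeq2 1.42.0, limma 3.58.1 on log2(FPKM + 1), other scalings and filters, and leaving out libraries. The SE of a fold change is its size over the root of the test's F. The fit was tested on simulated data with independent libraries, the same spread for every gene and changes larger than those of most members. That test does not cover the smaller differences here, the distance between columns of a group, or samples from the same mouse. CPM are the counts scaled by edgeR to TMM-adjusted library sizes, printed without the pseudocount of 1 used in the heat map, and an FPKM fold change understates low genes. Totals of 15103059 to 21738619 counts per library set the precision.

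Columns were assigned to groups by their names, which give genotype and time. Samples before and after came from the same mice, but columns do not name the mouse, so each library was 1 replicate and p-values reflect the spread between libraries. The members and lists were chosen with earlier results of these data known. Named in each comparison were up to 8 called members per direction by size and, where fewer than 4 were called, the 3 per direction with the smallest p, besides the 5 highest and 5 lowest by FPKM and members of known role. Genes named from the lists were the called ones or the 2 with the smallest p. DESeq2's 7 calls after regeneration, limma's higher calls in control, Mrpl53 and the divergent partners were named after their values were seen.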

Additional observations from a re-analysis of the deposited data

Results flagged for a closer look

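Libraries that stood apart were looked for in 108 groups of 4 values. These were the CPM of the members named in a comparison by call or smallest p, and the members' share and mean level. In 3 of these groups, the farthest library's gap to the nearest other, divided by the group's range, exceeded the critical value of Dixon's test. Members named only for other reasons, such as level or known role, were not examined. Chance gives about 1 in 20 such groups. Mrpl14 in control after had a lowest library at 29.9 CPM, with the others at 36.5 to 37.1 CPM (ratio 0.918). Mrpl27 in control after had a highest library at 22.2 CPM, with the others at 20.4 to 20.6 CPM (ratio 0.904). The mean log2 CPM of the members in HIRA KO after had a lowest library, that of column 1, at 4.45, with the others at 4.66 to 4.69 (ratio 0.856). Among members not examined, Mrpl12 in control before had a highest library at 92.7 CPM, with the others at 72.5 to 73.8 CPM. Mrps12 in control before had a lowest library at 24.97 CPM, with the others at 31.4 to 32.5 CPM. Mrpl11 in HIRA KO after had a lowest library at 21.84 CPM, with the others at 27.84 to 29.02 CPM.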

How the results depend on the processing

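The number of members called after against before regeneration in HIRA KO, 7 as reported, was 11 with upper quartile factors, 13 with library totals alone, 13 with filterByExpr, 12 with DESeq2, 3 with only the groups compared and 11 with limma on the FPKM, and it ran from 4 to 10 when 1 library was left out. All genes called with these settings were, in the order given, 2744 and 2708 of 23018, 3115 of 15201, 3654 of 23018, 1431 of 20922 and 2640 of 23018. For HIRA KO against control after regeneration, 0 as reported, the number of members was 6 with filterByExpr, 7 with DESeq2 and 1 with limma. The genes called in these fits were 228 of 15201, 910 of 23018 and 68 of 23018. When 1 library was left out, 0 to 4 members were called. In control, 2 members were called with regeneration, 1 with library totals alone, 3 with limma on the FPKM (2 of them higher) and 2 each time 1 library was left out. Over the libraries left out the members' median ran from -0.13 to -0.07 and from 0.07 to 0.19 for the genotypes before and after, from -0.15 to -0.05 and from 0.13 to 0.22 for regeneration in control and HIRA KO, and from 0.17 to 0.30, the last without column 4 of control after, for the interaction. The median moved by more than the SD between libraries (0.0881) to -0.0042 (genotypes before) and 0.0218 (regeneration in control) in the FPKM and to 0.26 (regeneration in HIRA KO) with library totals alone. The interaction of Mrpl24 changed sign to 0.0432 without the HIRA KO libraries of columns 1 and 2, an alternative chosen after seeing the data, as were all those of the medians. The causes of these changes were not tested. The filterByExpr fit held fewer genes and some fits held fewer libraries, and the part of either was not tested. No paired analysis was possible because the columns carry neither the mouse nor the replicate numbers of the labels, and the planned fits with the replicate block and with the deletion approach as a term were not run.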

Other observations

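The members moved together across libraries within their groups. After each gene's group means were subtracted, the median correlation between pairs of members over the 16 libraries was 0.324, against 0.0126 between pairs of the 9722 genes at a mean of 5 CPM or more. The libraries share their depth, scaling and tissue composition across all genes, so these values are descriptions. The correlation of a member with the mean of the others had a median of 0.592, was 0.949 for Mrpl12, 0.899 for Mrps7 and 0.880 for Mrpl37, and was negative for 4 members, of which Mrps31 had the lowest value at -0.37. Mrps31 was also the small subunit member called lower with regeneration in control.

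Among genes that are no member, those whose log2 level ran most like the members' mean over the 16 libraries were Chchd1 (Pearson r 0.935, Spearman rho 0.924), itself a protein of the small mitochondrial subunit under another name, Rps27l (r 0.926, rho 0.918), related to a cytoplasmic ribosomal protein, and Timm13 (r 0.909, rho 0.865), a chaperone of protein import into mitochondria. They were picked for this likeness out of the 9722 genes at a mean of 5 CPM or more, with the members left out.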
